A study of Mus musculus with 6 samples.

Results

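Transthyretin (Ttr) and 8 other genes of the choroid plexus epithelium (Otx2, Folr1, Clic6, Kcne2, Sostdc1, Calml4, Htr2c and Trpm3) were followed on every array of a comparison between cortical cells of phenobarbital-exposed and control mouse embryos. They are 9 of the 20145 genes that the arrays' accessions name, and 15 of the 55681 probes. The genes were picked by name, as choroid plexus genes whose signal was higher with phenobarbital on these same arrays. Their difference between the groups is therefore described without a test, and it supports nothing by itself.

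The choroid plexus forms at the dorsal midline of the brain, where the roof plate and the cortical hem supply BMP and WNT signals. Its epithelium secretes cerebrospinal fluid, carries solutes between blood and fluid, and bears cilia. Otx2 is a homeobox factor that this epithelium needs to form and persist, Ttr is its best known secreted product, and the remaining genes encode proteins of its membrane or of its signalling.

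In the phenobarbital group, C57BL/6N dams were given phenobarbital in saline (8 mg/mL, 80 mg/kg) as 2 intraperitoneal injections 6 h apart on embryonic days 10 to 11. Phenobarbital is a barbiturate that enhances currents through GABA-A receptors. In the control group, the dams received saline on the same plan. The embryos' cerebral neocortex was taken at E12 according to the protocol and at E12.5 according to the sample labels, which call the cells neural progenitor cells. In both groups the cells were separated mechanically, plated on poly-L-ornithine and fibronectin, and used for RNA 4 h later, so they are a dissected and briefly cultured mixture with no sort. Each group had 3 one-colour Agilent arrays. The labels do not tell whether replicates were separate litters or cultures, so every p below covers only the spread between these arrays. The series concerns GABA-A receptors, taurine from the mother and the specification of neural progenitors.

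The share of spots well above background was 62.8% to 68.7% per array, and none outside the controls was saturated. Phenobarbital arrays were brighter throughout: the 75th percentile signal was 1839, 1853 and 1802 on phenobarbital replicates 1 to 3. On control replicates 1 to 3 it was 1286, 1116 and 1200. All 3 phenobarbital arrays and control replicate 1 shared slide 1, whereas control replicates 2 and 3 each had a slide of their own. Control replicate 2 stood apart from the other control arrays (Pearson's r across genes 0.988 and 0.983, against 0.996 between control replicates 1 and 3). The cells carried cortical genes: all 12 listed cortical progenitor and neuron genes passed the background filter. Values below are log2 signal relative to the array's 75th percentile, and a difference is phenobarbital minus control. Over all 25304 names tested, the median difference was -0.16, 6.24% rose and 10.5% fell, 16.7% together (limma, adjusted p below 0.05).

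The window of 1 of the 4 Otx2 start sites is shown because it holds TAATCC, the core that OTX proteins bind, and those of Calml4 and Htr2c because each has 1 listed start site and no control array had a signal well above background. RefSeq windows (GRCm38.p6, 250 bases before to 50 after a start site) were held for 5 of the 9 genes, Otx2, Kcne2, Calml4, Htr2c and Trpm3, with 10 windows in all. The core was searched on both strands, as TAATCC or GGATTA. It was found in 1 of the 10 windows and not in the other 3 of Otx2, in the reverse orientation 211 bases before the start. Of all 32851 windows, 7.06% held it. The lines give the 250 bases before the start, 5′ to 3′ on the gene's strand, with the core in capitals.
Otx2 (chr14:48665110-48665359, minus strand): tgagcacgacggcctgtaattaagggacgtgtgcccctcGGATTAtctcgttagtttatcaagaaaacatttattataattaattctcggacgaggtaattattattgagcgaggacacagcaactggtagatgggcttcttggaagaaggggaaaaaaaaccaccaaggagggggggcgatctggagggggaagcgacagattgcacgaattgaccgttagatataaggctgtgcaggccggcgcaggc
Calml4 (chr9:62857854-62858103, plus strand): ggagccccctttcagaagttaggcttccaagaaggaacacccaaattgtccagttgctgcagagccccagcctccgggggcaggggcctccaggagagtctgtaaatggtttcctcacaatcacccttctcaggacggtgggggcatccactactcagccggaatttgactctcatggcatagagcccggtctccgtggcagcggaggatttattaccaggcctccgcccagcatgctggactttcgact
Htr2c (chrX:146962263-146962512, plus strand): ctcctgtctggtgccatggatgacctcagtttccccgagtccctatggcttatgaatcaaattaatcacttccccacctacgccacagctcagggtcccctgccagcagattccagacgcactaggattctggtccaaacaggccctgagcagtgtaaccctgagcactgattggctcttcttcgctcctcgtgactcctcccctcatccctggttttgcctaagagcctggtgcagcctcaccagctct
A match of letters is a description of the window. The absence of the core from the Calml4 and Htr2c windows says only that these letters are not in these stretches.

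Among the secreted products, Ttr, the carrier of thyroid hormone and retinol-binding protein, had values of 3.98, 2.66 and 3.14 on phenobarbital replicates 1 to 3 and of -2.35, -3.46 and 0.73 on control replicates 1 to 3. On the scanner's linear scale, not adjusted for the brightness of each array, these were signals of 29000, 11700 and 15900 with phenobarbital and of 253, 101 and 1990 in controls. The groups did not overlap, and control replicate 3 was far above the other control arrays. The means were 3.26 ± 0.67 with phenobarbital and -1.69 ± 2.17 in controls (SD, n = 3 each), a difference of 4.95 ± 1.04 (SE of the fit), or 31.0-fold. That fold is an average over unlike controls: the phenobarbital mean exceeded control replicate 2 by 6.72, control replicate 1 by 5.61 and control replicate 3 by 2.53.

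Sostdc1, a secreted antagonist of BMP and WNT signalling, had values of -0.74, -1.14 and -0.07 with phenobarbital and of -5.18, -3.72 and -3.09 in controls. The groups did not overlap, and control replicate 1 was the lowest array. The difference was 3.35 ± 0.55, or 10.2-fold. Another Sostdc1 probe read -2.30, -2.45 and -1.46 with phenobarbital against -5.51, -5.00 and -4.51 in controls. Its difference of 2.94 ± 0.36 ran the same way, with control replicate 1 again the lowest.

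The transcription factor Otx2 had values of 1.55, 1.49 and 2.48 with phenobarbital and of -0.59, 0.56 and -0.39 in controls. The groups were separated by a gap of 0.92, with control replicate 2 nearest to the phenobarbital arrays. The means of 1.84 ± 0.56 and -0.14 ± 0.62 (SD, n = 3 each) differed by 1.98 ± 0.39, or 3.94-fold.

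Folr1, the folate receptor through which the choroid plexus moves folate into the fluid, had values of 0.04, -0.49 and 0.02 with phenobarbital and of -2.42, -1.70 and -1.84 in controls. All phenobarbital arrays lay above all control arrays. The difference was 1.84 ± 0.24, or 3.59-fold. On the other Folr1 probe the values were -3.65, -4.06 and -3.24 with phenobarbital and -4.86, -4.46 and -4.96 in controls. The groups again did not overlap, but the difference of 1.11 ± 0.25 was smaller.

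Clic6, a chloride intracellular channel protein, had values of 1.33, 0.46 and 1.24 with phenobarbital and of -1.18, -0.77 and -0.32 in controls. The groups did not overlap, and phenobarbital replicate 2 was the array nearest to the controls. The difference was 1.77 ± 0.30, or 3.40-fold.

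The other 4 genes were well above background on all 3 phenobarbital arrays and on no control array, so their control values are background signal. For them "at least" gives a nominal lower bound of the fold, on the processed signal. The bound sets the phenobarbital mean against, per control array, the higher of the probe's own signal and the lowest signal that any probe well above background had. That lowest signal is not the probe's own detection limit, and the differences with normexp, given below, were smaller than the bound. Kcne2, a regulatory subunit of potassium channels in the apical membrane of this epithelium, read -3.09, -4.59 and -4.83 with phenobarbital and -7.62, -7.90 and -5.96 in controls. It was at least 2.91-fold higher with phenobarbital. In linear signal, not adjusted for the brightness of each array, the Kcne2 probe read 216, 77.1 and 63.5 with phenobarbital and 6.55, 4.68 and 19.3 in controls.

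Trpm3, a cation channel that responds to steroids and heat, read -3.13, -4.44 and -3.23 with phenobarbital and -7.96, -6.63 and -5.72 in controls. It was at least 4.32-fold higher with phenobarbital. On the other Trpm3 probes, designed on other transcripts of the gene, fewer arrays stood above background. On 1 of them only phenobarbital replicates 1 and 3 were well above background (-5.14, -6.21 and -5.14 with phenobarbital, -7.70, -7.76 and -7.23 in controls). On the other no array was.

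Htr2c, the serotonin receptor by which serotonin acts on choroid plexus secretion, read -4.00, -4.87 and -2.87 with phenobarbital and -7.88, -6.97 and -6.48 in controls. It was at least 3.48-fold higher with phenobarbital. This rests on 1 of its 3 probes, since the other 2 were not well above background on any array. Calml4, a calmodulin-like protein, read -2.81, -4.62 and -3.26 with phenobarbital and -7.97, -8.05 and -7.72 in controls. It was at least 4.43-fold higher by the nominal bound. Its 3 phenobarbital arrays lay above all 3 control arrays, whose values are background signal, so the distance between them is not measured.

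**Figure D1:**
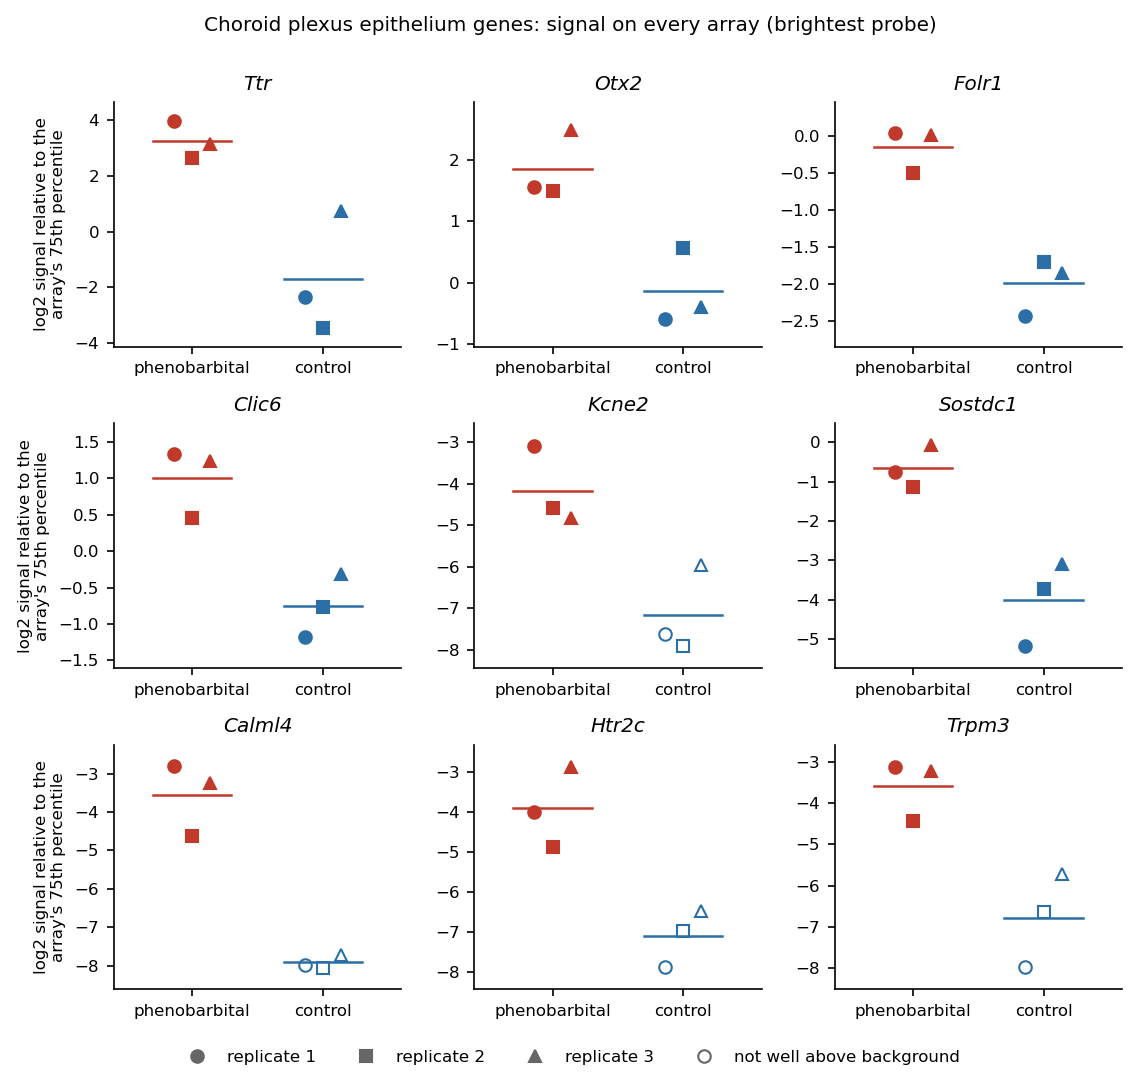
Log2 signal relative to the array's 75th percentile (vertical axis, its own range in each panel) of the brightest probe of each of the 9 genes, with the 3 phenobarbital arrays on the left, the 3 control arrays on the right, symbols for replicates and a line at the group mean. In every panel all phenobarbital arrays lie above all control arrays, and open symbols mark the control signals of Kcne2, Calml4, Htr2c and Trpm3, which were not well above background.

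The 9 genes had a median difference of 3.17, or 1.98 with the 4 dim genes at their bound, and the differences of the other 5 ran from 1.77 for Clic6 to 4.95 for Ttr. The bounds of Kcne2, Htr2c, Trpm3 and Calml4 were 1.54, 1.80, 2.11 and 2.15 on the log2 scale. No group overlap was seen for any of the 9 tested probes, where 11.7% of all names tested were free of overlap with phenobarbital higher. Both the counts and the median follow from how the genes were chosen. In RNA from a mixture of cells, more cells of a type and more RNA per cell cannot be told apart.

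Within slide 1, where control replicate 1 and the phenobarbital arrays lay together, the differences were 5.61 for Ttr, 4.54 for Sostdc1, 2.43 for Otx2, 2.27 for Folr1 and 2.19 for Clic6. For these 5 genes they were all larger than over the 6 arrays. They set the phenobarbital arrays against a lone control array, so no spread among controls stands behind them. Without control replicate 2, the array that stood apart, the differences were 4.07 for Ttr, 3.49 for Sostdc1, 2.33 for Otx2, 1.98 for Folr1 and 1.76 for Clic6. Without control replicate 3, the array with the high Ttr signal, the Ttr difference was 6.17.

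The background correction moved the dim genes most. With normexp and an offset of 50, which shrinks differences of weak signals, the differences were 1.08 for Calml4, 0.78 for Trpm3, 0.69 for Htr2c, 0.67 for Kcne2 and 2.36 for Sostdc1. Those of Ttr, Otx2, Folr1 and Clic6 were 4.61, 2.02, 1.60 and 1.68. The normexp differences of Calml4, Trpm3, Htr2c and Kcne2 lay below their nominal bounds of 2.15, 2.11, 1.80 and 1.54. The sign was positive for all 9 genes under each of the other settings that could be fitted and with any 1 array left out.

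**Figure D2:**
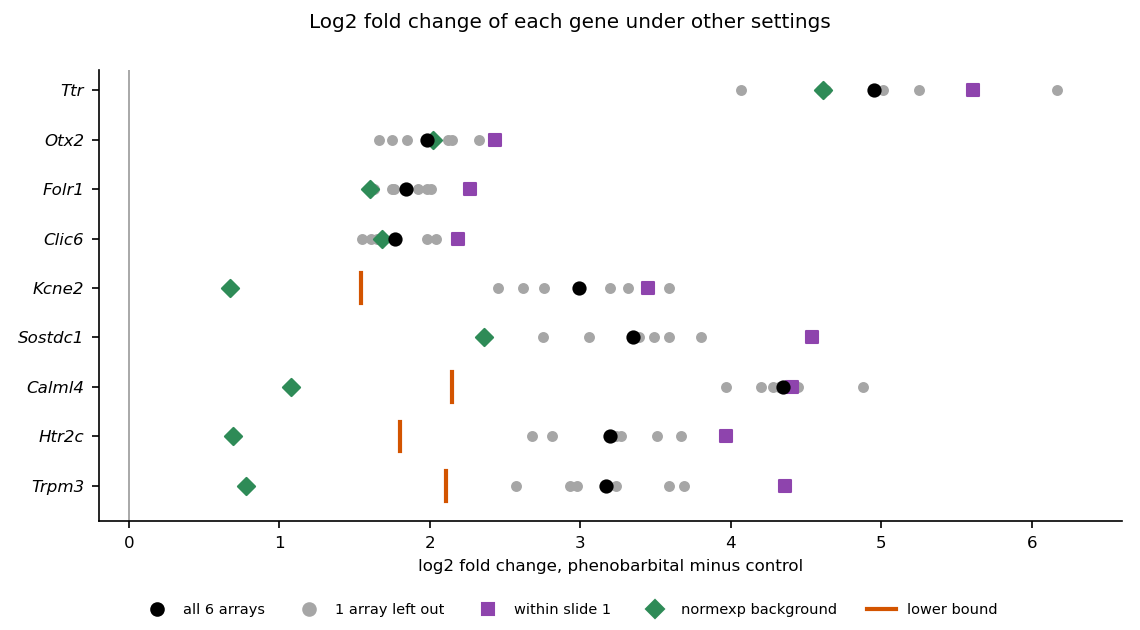
Log2 fold change (horizontal axis, phenobarbital minus control) of the 9 genes over all 6 arrays (black), with 1 array left out (grey), within slide 1 (squares), with normexp background correction (diamonds) and, for the 4 dim genes, as a lower bound (bars). Every point is above 0, Ttr ranges from 4.07 to 6.17 with 1 array left out, and the normexp values of Kcne2, Calml4, Htr2c and Trpm3 lie between 0.67 and 1.08.

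Within each group the genes tended to be low on the same array. Among phenobarbital arrays, replicate 2 was the lowest for 8 of the 9 genes, all but Kcne2, whereas it was the lowest for 27.4% of all genes. Replicate 1 was the highest for 6 of the 9 genes (29.3% of all genes) and replicate 3 for the other 3, Otx2, Sostdc1 and Htr2c. The phenobarbital arrays thus differed among themselves in all of these genes, Ttr by 1.31 and Htr2c by 1.99 between the highest and lowest array. These genes share the array, its scaling and the culture it came from, so they are not independent of each other.

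The control arrays were compared over the 5 genes above background on all 6 arrays, Ttr, Otx2, Folr1, Clic6 and Sostdc1. Control replicate 1 was the lowest for 4 of them and control replicate 2 for Ttr, where over all genes these shares were 22.4% and 42.7%. Control replicate 3 was the highest for Ttr, Clic6 and Sostdc1, and control replicate 2 for Otx2 and Folr1. No gene was highest on control replicate 1, and none was lowest on control replicate 3.

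The spread of these genes was wide for their groups. The SD over phenobarbital arrays was 0.67 for Ttr, 0.56 for Otx2, 0.54 for Sostdc1, 0.48 for Clic6 and 0.30 for Folr1, against a median of 0.15 over all genes above background. Over control arrays it was 2.17 for Ttr, 1.08 for Sostdc1, 0.62 for Otx2, 0.43 for Clic6 and 0.38 for Folr1, against a median of 0.17. Only 0.0626% of genes had a larger control SD than Ttr, and 1.28% had a larger one than Sostdc1, while 17.1% did for Folr1. Averaged over these 5 genes, each centred on its mean, the arrays stood at 1.55, 0.92 and 1.69 with phenobarbital and at -2.02, -1.49 and -0.66 in controls. Over all 9 genes, 4 of them at background in controls, they stood at 1.87, 0.91 and 1.82 with phenobarbital and at -2.16, -1.66 and -0.78 in controls.

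**Figure D3:**
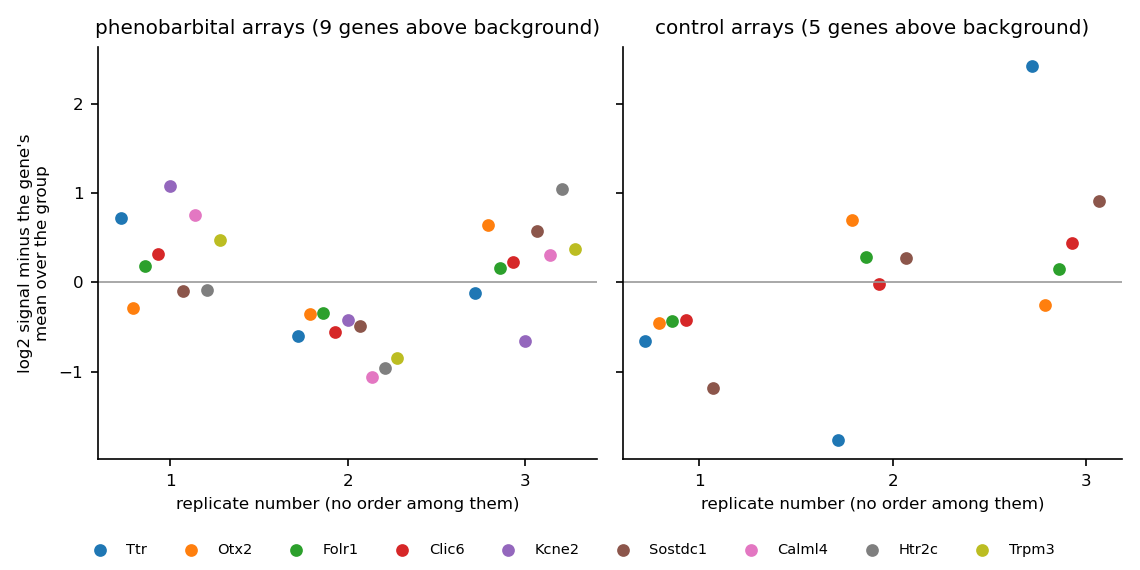
Log2 signal of each gene minus its mean over its own group (vertical axis) on each replicate (horizontal axis), for the phenobarbital arrays on the left and the control arrays on the right, where the 4 genes not above background are left out. On phenobarbital replicate 2 all 9 genes lie below their group mean, on control replicate 1 all 5 do, and Ttr on the control arrays has the widest range, 4.19.

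Most other genes of the same epithelium did not pass the test. Of 44 listed, 42 were on the array and 36 passed the background filter: 4 rose, 1 fell and 31 did not pass the test, with a median difference of 0.00 (all names: 6.24% rose, 10.5% fell, median -0.16). Krt8, a keratin of simple epithelia, rose with values of -0.09, -0.29 and 0.12 with phenobarbital against -2.29, -3.01 and -1.92 in controls, a difference of 2.31 ± 0.28 (adjusted p = 0.00722). Cldn3, a tight junction protein, rose by 1.96 ± 0.27 (adjusted p = 0.0102), with 1 of 3 control arrays well above background. It passed the filter through the phenobarbital arrays alone, so this value and its p rest in part on background signal. The heparan sulfate editing enzyme Sulf1 rose by 1.42 ± 0.33 (adjusted p = 0.0365) and the membrane carbonic anhydrase Car12 by 0.72 ± 0.19 (adjusted p = 0.0482). Slco1c1, a thyroid hormone transporter, fell by 0.56 on the log2 scale (SE 0.14, adjusted p = 0.0409). Of these 5 only Krt8 passed with the slide as a block, and with normexp Cldn3 differed by 0.52 (adjusted p = 0.0637) and Car12 by 0.48 (adjusted p = 0.0515), neither past the threshold. The number called in the list was 7 without control replicate 2 and 2 without any other array.

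Some transport genes of the mature epithelium, and its prolactin receptor, had differences near 0, whereas other carriers differed more. The water channel Aqp1 read -0.61, -1.13 and -1.65 with phenobarbital and -1.36, -1.07 and -0.83 in controls, a difference of -0.04 ± 0.28 with overlapping groups. The bicarbonate carrier Slc4a5 differed by 0.05 ± 0.49, the potassium channel Kcnj13 by -0.15 ± 0.12, the prolactin receptor Prlr by -0.05 ± 0.19 and the cation transporter Slc29a4 by 0.03 ± 0.14. Without passing the test, Slc4a10 differed by -0.76 ± 0.30 and Slc13a4 by 0.50 ± 0.26. Slc31a1 differed by -0.32 ± 0.12, with groups that did not overlap, and did not pass either. The 6 listed genes that did not pass the background filter included Kl, Cldn1, Cldn2, Slc22a8 and Slco1a5, several of them defining transcripts of the adult epithelium. The genes named in this paragraph were picked from the list after their values were seen. Spint2 differed by 1.71 ± 0.50 (adjusted p = 0.0624) and Glis3 by 0.90 ± 0.24 (adjusted p = 0.0518), both short of the threshold.

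Choroid plexus epithelium names what the 9 genes are known for. Of the 36 other listed genes 13.9% were called, near the 16.7% of all names, which is no result about the list.

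**Figure D4:**
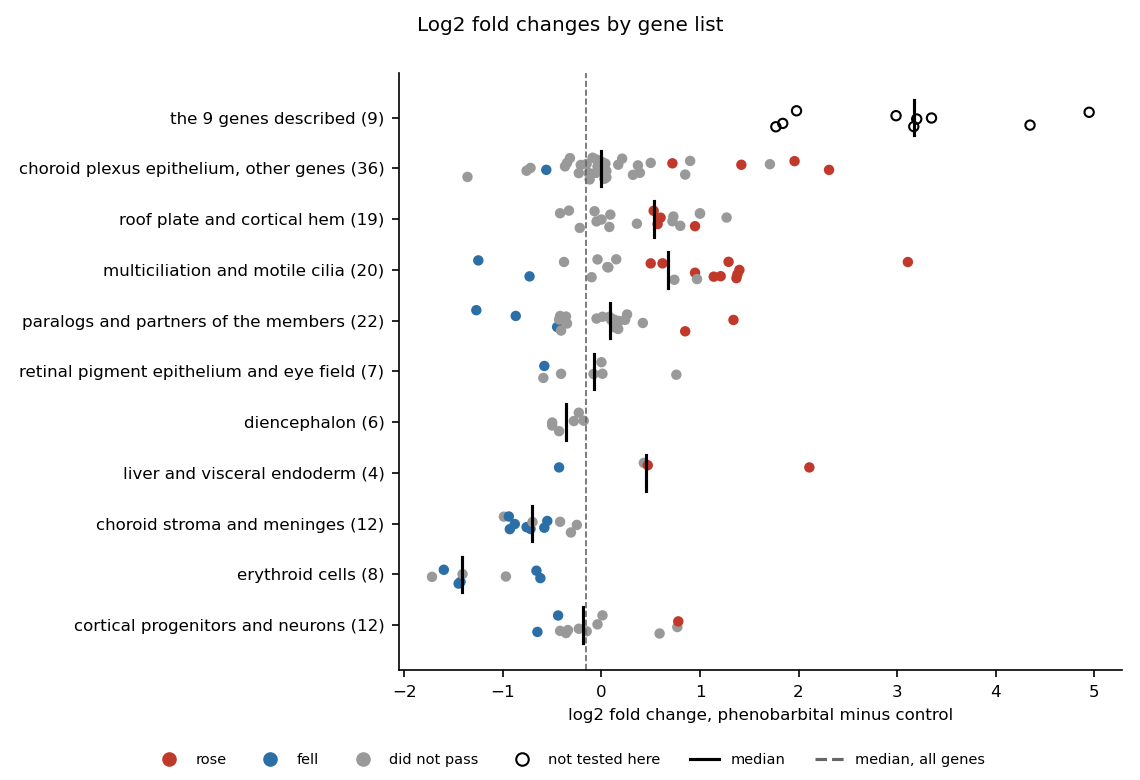
Log2 fold change (horizontal axis, phenobarbital minus control) of every tested gene in the 9 genes described and in 10 other lists, with the number tested in brackets, red for genes that rose, blue for genes that fell, grey for genes that did not pass, open circles for the 9 genes, which were not tested, and bars at the medians. The fitted values of the 9 genes lie between 1.77 and 4.95, 4 of them with only a lower bound of 1.54 to 2.15, the other choroid plexus genes centre on 0.00, and the stroma and erythroid lists lie at or below -0.25.

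Genes of the roof plate and cortical hem, the tissue next to the choroid plexus, had a median difference of 0.53 over the 19 tested of 21 listed: 4 rose, none fell and 15 did not pass. The 21.1% called is near the 16.7% of all names, though all 4 calls were higher (6.24% of all names). Id3, a BMP response gene, rose by 0.95 ± 0.19 (adjusted p = 0.0252), the ligand Bmp7 by 0.53 ± 0.12 (adjusted p = 0.0325), the WNT feedback gene Axin2 by 0.57 ± 0.13 (adjusted p = 0.0349) and the ligand Wnt5a by 0.60 ± 0.16 (adjusted p = 0.0489). The roof plate regulators Lmx1a, Msx1 and Gdf7, named after their values were seen, differed by -0.33 ± 0.39, -0.07 ± 0.34 and 0.00 ± 0.14. Lmx1a read 0.49, 0.38 and 0.79 with phenobarbital and 0.37, 1.82 and 0.44 in controls, so control replicate 2 was the highest array. Other genes that did not pass, also named after their values were seen, differed more. Wnt8b differed by 1.27 ± 0.57, Rspo3 by 0.73 ± 0.22, Bmp6 by 0.72 ± 0.22 and Bmp2 by -0.42 ± 0.15. Rspo2 read 0.97, 1.31 and 1.48 with phenobarbital and -0.36, 0.52 and 0.62 in controls (adjusted p = 0.0598). The groups did not overlap for Rspo2, Rspo3, Bmp6 and Bmp2. Of the 19 tested genes, 13 had a difference above 0. Leaving out control replicate 2 raised the number called in this list to 9, and leaving out control replicate 1 or phenobarbital replicate 2 or 3 left 0. Without control replicate 3 or phenobarbital replicate 1 it was 1, and none of the 4 passed with the slide as a block. With normexp Wnt5a differed by 0.46 and did not pass (adjusted p = 0.0620).

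Multiciliation and motile cilia genes changed in larger numbers: of 20 tested, 10 rose, 2 fell and 8 did not pass, with a median of 0.68. The share called was 60%, against 16.7% of all names. Tppp3, a tubulin-binding protein, read -1.32, -1.25 and -1.11 with phenobarbital against -2.56, -2.64 and -2.62 in controls, a rise of 1.38 ± 0.10 (adjusted p = 0.00225). The dynein intermediate chain Dnaic2 rose by 1.40 ± 0.18 (adjusted p = 0.00829). The multiciliation regulators Gmnc and Ccno rose by 1.29 ± 0.23 (adjusted p = 0.0203) and 1.14 ± 0.21 (adjusted p = 0.0222), and the motile cilia factor Foxj1 by 1.21 ± 0.24 (adjusted p = 0.0263). Meig1, which passed the filter through the phenobarbital arrays alone, had a nominal bound of at least 3.69-fold higher with phenobarbital. Its call (adjusted p = 0.0270) belongs to the fit, not to the bound, and rests on background signal in controls. When all 6 arrays had to be above background, 11 genes of the list were called. Under normexp, 9 genes of the list were called. There Dnaic2 differed by 0.31 and was among those that no longer passed (adjusted p = 0.0977), and Meig1 differed by 0.73. The 2 that fell were the regulator Mcidas, by 0.73 on the log2 scale (adjusted p = 0.0444), and the radial spoke gene Rsph4a, by 1.25 (adjusted p = 0.0369), although another Rsph4a probe differed by 0.71; both are named to fix the count. The number called was 2 or 3 without phenobarbital replicate 1, 2 or 3 or control replicate 1, 8 without control replicate 3, and 7 with the slide as a block.

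Relatives and partners of the 9 genes mostly did not pass the test: of 22 tested of 30 listed, 2 rose, 3 fell and 17 did not pass, with a median of 0.09. The 22.7% called is near the 16.7% of all names, which is no result about the list. Otx1, the paralog of Otx2 that is expressed in the cortex itself, read 0.59, 0.87 and 0.66 with phenobarbital and 0.04, -0.14 and -0.33 in controls, a rise of 0.85 ± 0.14 (adjusted p = 0.0160). Among the TRPM channels, Trpm4 rose by 1.34 ± 0.23 (adjusted p = 0.0179), whereas Trpm1 fell by 1.27 (SE 0.18, adjusted p = 0.0114) and Trpm6 fell by 0.87 (SE 0.14, adjusted p = 0.0159). Izumo1r, a folate receptor family member that acts in fertilization, fell by 0.45 (SE 0.10, adjusted p = 0.0343). Named after their values were seen, the folate receptor Folr2 differed by 0.26 ± 0.21, the serotonin receptor Htr2a by -0.36 ± 0.15, Clic1 by -0.41 ± 0.14, Clic4 by -0.42 ± 0.16 and Kcnq1, a channel that Kcne2 can join, by 0.12 ± 0.29. Crx, Kcne1, Htr2b and Sost, also named after their values were seen, were not above background by the filter. The number called was 1 without phenobarbital replicate 2 or 3, and 2 without phenobarbital replicate 1 or control replicate 1. With the slide as a block, Trpm1 and Trpm4 passed and Otx1, Trpm6 and Izumo1r did not. With normexp, Trpm4 differed by 0.43, and Izumo1r by -0.36 without passing (adjusted p = 0.0514).

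Some of the 9 genes are also expressed outside the choroid plexus, so markers of those tissues were read beside them. Otx2, Ttr and Trpm3 are active in the retinal pigment epithelium. Of 7 tested of 12 listed eye genes only the pigment cell regulator Mitf was called, with a fall of 0.58 (SE 0.14, adjusted p = 0.0399). Tyr, Dct, Pmel and Rlbp1 were well above background on all 6 arrays. They differed by 0.00 ± 0.17, -0.41 ± 0.25, -0.59 ± 0.30 and -0.08 ± 0.69 and were not called. Tyrp1, Rpe65, Best1 and Six6 were not above background on any array. At least 95.2% of the eye list's summed level on each array came from Lhx2, which cortical progenitors also express. Without it the sum, in units of the 75th percentile, was 4.05, 3.87 and 2.71 with phenobarbital and 4.81, 4.64 and 4.76 in controls. Ttr is also a product of liver and visceral endoderm. Of 10 listed genes of these, Fga, a fibrinogen chain, rose by 2.11 ± 0.24 (adjusted p = 0.00884, phenobarbital replicate 2 missing, 1.13 with normexp), Cubn, an endocytic receptor, rose by 0.47 ± 0.12 (adjusted p = 0.0447), and Amn, its partner, fell by 0.43 (adjusted p = 0.0453). The defining transcripts Apoa1, Apob, Fgb and Fgg were not above background on any array, and Alb and Afp on 1 array each. Apoa2 was well above background on all 6 arrays and differed by 0.43 ± 0.27 without being called. It made up at least 88.2% of the liver list's summed level on each array. The eye and liver genes not called were named after their values were seen. The share called was 14.3% of the tested eye genes and 75% of the 4 tested liver genes, against 16.7% of all names. The liver list had 0, 1 and 0 calls without phenobarbital replicates 1 to 3 and 1, 2 and 1 without control replicates 1 to 3, and the eye list had 2 without control replicate 2, 1 without control replicate 3 and 0 without any other array. Otx2 marks diencephalon as well, and of 6 tested diencephalic genes 0 were called by limma and 1, Irx2, had an unadjusted p below 0.05 (-0.50 ± 0.19, named after its value was seen). The brightest of them, Tcf7l2 and Lhx9, differed by -0.43 ± 0.25 and -0.50 ± 0.28.

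Markers of stroma and of erythroid cells were lower with phenobarbital. The share called was 58.3% of stroma, 62.5% of erythroid and 25% of cortical genes, against 16.7% of all names. In choroid stroma and meninges 7 of 12 genes fell, none rose and the median was -0.71, for example Lum by 0.93 on the log2 scale (adjusted p = 0.0118) and Foxc1 by 0.76 (adjusted p = 0.0134). Their summed level, in units of the 75th percentile, was 38.0, 31.4 and 36.8 with phenobarbital and 55.7, 57.6 and 60.5 in controls. In erythroid cells 5 of 8 tested genes fell and none rose, for example Hba-a1 by 0.62 (adjusted p = 0.0141). With quantile normalization Hba-a1 differed by -0.17 and did not pass, Hbb-y reversed, and 1 gene of the list was called. The erythroid sum was 606, 647 and 656 with phenobarbital and 1100, 1370 and 937 in controls. Hbb-y alone made up 40.7% to 53.8% of it per array. Without Hbb-y the sum was 280, 328 and 328 with phenobarbital and 609, 813 and 447 in controls. Of 12 cortical genes, Emx2 rose by 0.78 ± 0.20 (adjusted p = 0.0453), and Tbr1 fell by 0.65 (adjusted p = 0.0290), as did Vim by 0.44 (adjusted p = 0.0358), although Vim reversed with quantile normalization. The part of these cells, of dissection or of the slide in the values of the 9 genes was not tested. Without phenobarbital replicate 1, 2 or 3 the stroma list had 2, 0 and 4 calls, and 3, 9 and 4 without control replicate 1, 2 or 3. The erythroid list had 0, 0 and 2 calls without phenobarbital replicates 1 to 3 and 0, 4 and 6 without control replicates 1 to 3. The cortical list had 3 calls without control replicate 2 and 0 without any other array. With the slide as a block, the stroma list had 0 calls, the erythroid list 2 and the cortical list 0.

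The genes with a symbol whose pattern over the 6 arrays lay nearest to the mean of the 9 were sought by the root mean square difference of centred log2 values. They were Tmem132d (0.35), Meig1 (0.36), Cfap52 (0.39), Gm10639 (0.44), Lpin1 (0.47), Gsta1 (0.48), Zmynd12 (0.52), Cryzl2 (0.54), Brca1 (0.56) and Ykt6 (0.56). Meig1 and Cfap52 are genes of cilia and sperm tails, Lpin1 encodes a phosphatidate phosphatase and Gsta1 a glutathione transferase. Cfap52 read -1.30, -2.29 and -1.89 with phenobarbital and -5.17, -4.03 and -3.97 in controls, so the lowest arrays were phenobarbital replicate 2 and control replicate 1. Tmem132d read -2.73, -3.02 and -2.25 with phenobarbital and -5.65, -5.78 and -4.45 in controls. Of the 10, Meig1, Gsta1, Zmynd12, Cryzl2 and Brca1 were not above background on any control array, and the mean of the 9 includes 4 such genes. Tmem132d and Gm10639 were above background on 1 control array each. The order therefore rests in part on background signal. With normexp the differences of Meig1, Gsta1, Zmynd12, Cryzl2 and Brca1 were 0.73, 0.91, 0.21, 0.70 and 0.32. These genes were picked for their likeness, and so no test is given.

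Most genes next to the 9 on the chromosome did not pass the test. The 2 nearest tested genes on each side came to 34 neighbours, a comparison made after the data were seen: 4 rose, 5 fell and 25 did not pass, with a median of -0.19 against -0.16 over all names. The share that rose was 11.8% of the neighbours and 6.24% of all names. The 4 were Cln6, the neighbour of Calml4, by 1.52 ± 0.15, Il13ra2 by 0.75 ± 0.17, Rcan1 by 0.68 ± 0.15 and Bzw2 by 0.52 ± 0.11. Kcne2 and Clic6 lie near each other on chromosome 16, and between them Smim11 differed by -0.38 ± 0.14, Rcan1 rose (adjusted p = 0.0353), and Kcne1 was not above background on any array. Runx1, on the far side of Clic6, fell by 0.72 (SE 0.16, adjusted p = 0.0315).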

How the data were processed

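Signals were extracted by the authors with Agilent Feature Extraction, version 10.7.3.1 per the file headers and 10.7 per the submitters' processing notes, on an array annotated against mm9. The deposited values are spot intensity, linear, corrected by the software for background and for trends across the array, with no step that makes arrays comparable. A value table was also deposited by the authors, in log2: after 1 factor per array, 99.6% of its array-to-array differences matched the scanner's within 0.001. The constant on which it centres each probe stays unknown, and its column medians were -0.02, -0.09 and -0.08 for phenobarbital and 0.08, 0.10 and 0.09 for control replicates 1 to 3.

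Here, spots that the software called outliers (98 to 198 of 59305 per array) were set missing, each array's 75th percentile was subtracted from log2 processed signal, and spots of a probe were averaged. Accessions named 26582 of 55681 probes through RefSeq (GRCm38.p6, names only). A probe stayed (34673 did) if all arrays of either group were well above background and both groups had 2 values or more, and the brightest per gene was fitted, giving 25304 names. The comparison used limma 3.58.1 in R 4.3.3 (lmFit, eBayes), two-sided, without covariates, with Benjamini-Hochberg adjustment over all names and a threshold of 0.05. The fit was tested on simulated data. Their noise was independent between genes and arrays and held no slide effect, so that test does not bear on the slides. The number of arrays, 3 a group, limits the precision.

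The 9 genes, the lists and the tests were chosen with earlier results of these data known. Named were the 9 genes on every probe, up to 6 called genes of each list by smallest p (up to 14 for the choroid plexus), or the 2 brightest where none was called, genes that fix a count, and the 10 nearest patterns. Other genes named are said to be chosen after their values were seen.

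Alternatives changed the background correction (normexp on median spot signals), scaling, dim-probe filter, outliers, probe choice, variance prior, array weights and source of values, used replicate number or slide as a block, and dropped each array in turn. Whether replicate numbers pair the arrays was checked. Some listed genes are not reported here.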

Additional observations from a re-analysis of the deposited data

How the results depend on the processing

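The difference of the 9 genes stayed positive under all alternatives that could be fitted. Its median, 3.17, was 1.60 with normexp and 1.98 when all 6 arrays had to be above background, which leaves 5 genes, and 2.75 to 3.59 with 1 array left out. Single genes ranged, with 1 array left out, over 4.07 to 6.17 for Ttr. Of 54 other named genes, 2 reversed, Hbb-y (0.14) and Vim (0.05) with quantile normalization. Many more kept their sign but no longer passed: 47 with the replicate block, 32 with no filter on dim probes and 42 without phenobarbital replicate 2. The number was 8 without control replicate 2 and 2 with the mean over probes.

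Genes called numbered 4234 (37.3% of them higher). The count was 2470 with scaling to the median (58.4% higher), 2716 with the percentile over probes above background on all arrays (59.4%), 1486 with no filter on dim probes (60.3%), 10175 with array weights (28.0%), 771 with the slide as a block (78.9%) and 295 with the replicate block (91.5%). It was 2916 after quantile normalization (54.6% higher) and 6260 with normexp (24.4%). With 1 array left out it was 881 to 4406, at 881 without phenobarbital replicate 2, 889 without control replicate 1, 1109 and 1260 without phenobarbital replicates 1 and 3, and 1795 without control replicate 3. Quantile normalization moved the median of all names to -0.06.

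The other choroid plexus list, with 5 calls, had 2 with no filter, 8 with the mean over probes, 13 with array weights, 1 with the replicate block and 3 with the slide as a random block (2 to 7 with 1 array left out). The hem list, with 4, had 0 with no filter, 12 with array weights, 0 with the replicate block and 1 with the slide block (0 to 9). The cilia list, with 12, had 3 with no filter, 1 with the replicate block and 7 with the slide block (2 to 10). The paralog list, with 5, had 8 with array weights, 0 with the replicate block and 2 with the slide block (1 to 7). The eye list, with 1, had 2 with normexp, 3 with array weights and 0 with quantile, median or above-background scaling, no filter, the mean over probes and each block (0 to 2). The diencephalon list, with 0, had 1 with normexp, no filter or array weights (0 to 1). The liver list, with 3, had 1 with quantile or median scaling, no filter, the slide block and the random block, and 0 with the replicate block (0 to 2). The stroma list, with 7, had 4 with above-background scaling, 3 with no filter and 0 with the replicate or slide block (0 to 9). The erythroid list, with 5, had 1 with quantile and 2 with above-background scaling, 2 with no filter, 0 with the replicate block and 2 with the slide block (0 to 6). The cortical list, with 3, had 1 with quantile or median scaling and the random block, 0 with no filter and the replicate or slide block, and 9 with array weights (0 to 3). The cause of these shifts was not tested.

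The replicate numbers did not pair the arrays: the deviations of same-numbered arrays correlated at 0.08, -0.16 and -0.35. Signal near background limits Kcne2, Calml4, Htr2c and Trpm3, and the number of arrays limits all comparisons.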
